A study of Homo sapiens with 4 samples.

Results

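The complement genes described here were C3, CFB, C1S, C1R, CFI, CD46, CD55, CD59 and SERPING1, chosen by name as components of the cascade and as proteins that restrain it. All 9 genes were found among the 57815 rows of the deposited expression table, in 10 rows, since CFB had 2. The table came from RNA-Seq of MDA-MB-231, an established triple-negative breast cancer line, and its lung-metastatic derivative, called LM2 here as in that table and by its full label in the plots. Both were obtained from ATCC, received no treatment and were grown in DMEM with fetal bovine serum, and the cell line is the one difference that the labels give. Each condition is thus a single cell line, and whether its libraries came from separate cultures is not given in the sources used here. There were 2 libraries per cell line and 4 in all, which the authors had combined in 1 FPKM per gene and cell line.

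Complement is a set of serum proteins, made mainly by the liver but also by epithelial, stromal and tumour cells, that tag and lyse target cells. In the classical pathway the proteases C1r and C1s, bound to C1q, cleave C4 and C2, and in the alternative pathway factor B binds C3b, so that both routes meet at the cleavage of C3. Cells protect themselves with soluble inhibitors such as factor I and C1 inhibitor and with membrane regulators that stop the cascade on their surface.

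Levels are in FPKM (fragments counted per kilobase of a transcript, relative to all mapped fragments), with the lower and upper bounds that the table lists beside it. How these bounds were derived is not given in the sources used here, and their width at the median was 38.6% of the FPKM to each side in MDA-MB-231 and 38.1% in LM2. The read depth behind a value is unknown from FPKM alone. The study lists aligned read pairs per library, lowest for a library of MDA-MB-231, and these were not used here. With 1 value per cell line no test between replicates was possible. A gene was called where its mean was at least 0.5 FPKM, its status was OK, FPKM + 1 changed by at least 1.5-fold and the bounds of the cell lines did not overlap. Of the 9 members, 6 passed the filter of 0.5 FPKM and 3 (CFB, CFI and SERPING1) did not. Of the 6, C3 and C1R were called higher in LM2 and none was called lower, while 9.27% of the 13911 genes past the filter were called, 4.67% higher and 4.61% lower. By value alone 4 of the 6 were higher and 2 lower, with a median log2 change of 0.60 for the members and -0.04 for all genes past the filter. The median of the members depended on which of them were counted, with 0.01 over all 10 rows without the filter, 0.23 over the 5 at or above a mean of 5 FPKM and 0.31 over the 7 past the filter after scaling to the same sum.

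The identity of the cells was checked first. The mesenchymal marker VIM had 1355 FPKM in MDA-MB-231 and 1768 in LM2, the receptor EGFR had 41.4 and 54.3, and the hormone receptors ESR1 and PGR stood at no more than 0.033 and 0.012 FPKM. The receptor ERBB2, unlike ESR1 and PGR, passed the filter, with 35.0 FPKM (bounds 20.9–49.0) in MDA-MB-231 against 22.8 FPKM (bounds 12.8–32.7) in LM2. The marker CDH1 was listed at 0.851 against 0.366 FPKM, and neither ERBB2 nor CDH1 was called. The keratins KRT8 (626 to 180 FPKM) and KRT18 (448 to 181 FPKM) fell. Markers of hepatocytes, the main source of serum complement, summed to 11.4 FPKM over 8 genes in MDA-MB-231 and 12.0 in LM2, with ALB at 7.48 and 8.49. Over 9 white blood cell markers the sum was 4.62 FPKM in MDA-MB-231 and 2.75 in LM2, CSF1R stood at 2.92 and 0.790, CD14 at 1.17 and 1.75 and PTPRC at 0.077 and 0.026, and CD3E was listed at 0 in both. Of 5 endothelial markers 4 were matched, with a sum of 0.133 and 0.198 FPKM.

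**Figure D1:**
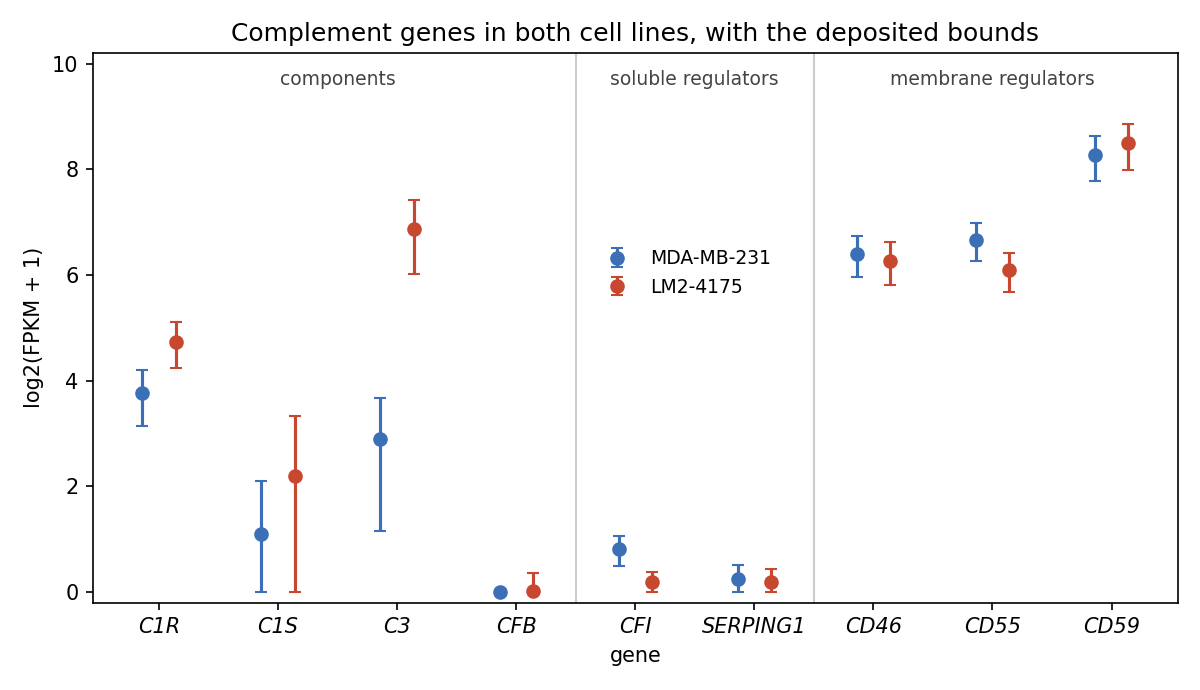
Expression of the 9 complement genes as log2(FPKM + 1) in MDA-MB-231 (blue) and LM2 (red); points are the combined value of each cell line and bars the deposited lower and upper bounds. The bounds of C3 and C1R lie apart with LM2 higher, those of the low gene CFI lie apart with MDA-MB-231 higher, and those of CD46, CD55 and CD59 overlap.

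C3 encodes the central component, whose cleavage releases C3a and deposits C3b on surfaces. The gene (ENSG00000125730) lies on the minus strand of chromosome 19 (chr19:6677715-6730573, GRCh37). It was listed at 6.45 FPKM (bounds 1.24–11.7) in MDA-MB-231. In LM2 it was listed at 117 FPKM (bounds 64.2–169). Every value within the bounds of LM2 was therefore above those of MDA-MB-231, with a gap of 52.5 FPKM between them. C3 rose 18.1-fold in FPKM, and the ratio of the nearest bounds was 5.51 and that of the farthest 137. On the log2 scale of FPKM + 1 the change was 3.98, the 28th largest increase among the 13911 genes. By level, C3 moved from rank 8761 to rank 801 of all genes in the table. It was the least precise of the called members, since its bounds in MDA-MB-231 reached 80.8% of the FPKM to each side. A share of 11.7% of its annotated exon bases is also covered by ENSG00000276980 on the same strand, for which no value was used here, so reads from these bases could have been split.

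C1R and C1S encode the paired serine proteases of the first component, which act in turn. C1r cleaves C1s, and C1s cleaves C4 and C2. The genes start 149 kb apart on chromosome 12, C1R (ENSG00000159403) on the minus strand (chr12:7187513-7245203) and C1S (ENSG00000182326) on the plus strand (chr12:7096351-7178336). C1R was listed at 12.6 FPKM (bounds 7.83–17.3) in MDA-MB-231 and at 25.7 FPKM (bounds 17.8–33.5) in LM2. The bounds of C1R were apart, by no more than 0.524 FPKM. C1R rose 2.04-fold, with 1.03 as the ratio of the nearest bounds and 4.28 as that of the farthest. The change was 0.97 on the log2 scale of FPKM + 1 and ranked 646 among the increases, and it was not called when a 2-fold change was required. C1RL, the C1r-like protease gene, overlaps 14.3% of the exon bases of C1R on the same strand and had 2.58 FPKM in MDA-MB-231 and 2.47 in LM2. C1S had 1.13 FPKM (bounds 0–3.29) in MDA-MB-231 and 3.59 FPKM (bounds 0–9.10) in LM2. Its value was 3.19 times as high in LM2, with a log2 change of 1.11, and the bounds overlapped down to 0. C1S thus met the fold and not the bounds and was not called. Its upper bounds lay 191% (MDA-MB-231) and 153% (LM2) of the FPKM above its value, and its lower bounds were 0. C1R was above C1S in both cell lines, by 11.1 times in MDA-MB-231 and by 7.14 times in LM2, and the bounds of both genes were apart within each line.

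The proximal promoters of the members are shown because C1R and CFB are known as cytokine-induced genes that respond through STAT, NF-kB and interferon-response elements. From RefSeq (GRCh38.p14) the 250 bases before each annotated start were read, giving 11 promoters for 6 of the members. C3, C1S and SERPING1 had no entry. Searched on both strands were TTCNNNGAA (STAT), TTNCNNAA (C/EBP), GAAANNGAA (the interferon-response core), TATAAA and the kB consensus. Among 34788 distinct promoters of the same length, STAT letters were held by 6.57%, C/EBP letters by 33.2%, the interferon-response core by 6.89%, TATAAA by 10.8% and the kB consensus by 9.95%. A match is a description of these letters only. Matches are in capitals, 5′ to 3′, in 3 windows placed on GRCh37 by exact match: the second C1R start (chr12:7244490-7244739, minus strand, an intron that 1 annotated transcript retains), the first CD59 start (chr11:33758026-33758275, minus strand, upstream of the annotated exons) and the part of the CFB window that no annotated CFB exon covers (chr6:31913622-31913751, plus strand, in the first intron of 1 annotated transcript and before the first exon of the others).
C1R, second start: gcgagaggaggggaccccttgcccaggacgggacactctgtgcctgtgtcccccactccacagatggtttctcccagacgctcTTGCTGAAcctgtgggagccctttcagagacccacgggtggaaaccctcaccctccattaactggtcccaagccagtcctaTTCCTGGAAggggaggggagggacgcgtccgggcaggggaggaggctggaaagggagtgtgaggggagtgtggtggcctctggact
CD59, first start: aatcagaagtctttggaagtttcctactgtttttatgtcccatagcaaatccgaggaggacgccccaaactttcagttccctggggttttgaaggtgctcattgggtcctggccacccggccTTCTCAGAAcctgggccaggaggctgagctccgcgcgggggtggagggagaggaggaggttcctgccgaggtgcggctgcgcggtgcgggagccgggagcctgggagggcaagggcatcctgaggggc
CFB, upstream part: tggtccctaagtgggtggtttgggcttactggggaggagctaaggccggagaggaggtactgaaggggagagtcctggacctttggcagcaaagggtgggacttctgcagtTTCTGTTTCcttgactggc
In C1R the C/EBP letters TTGCTGAA lie at -167 to -160 and the STAT letters TTCCTGGAA at -86 to -78 from the start. The window of its first start held C/EBP letters at -151 to -144 and at -106 to -99 and no STAT letters. In CD59 the STAT letters TTCTCAGAA lie at -128 to -120, and this same site falls at -184 to -176 of the second start. The window of the third CD59 start held C/EBP letters at -191 to -184 and at -53 to -46, and that of the fourth held none of the letters searched. The CFB stretch holds the interferon-response core, read on the minus strand, at -139 to -131. Nearer its start, outside the stretch shown, CFB had a kB match at -112 to -103, STAT letters at -92 to -84 and TATAAA at -30 to -25, the most kinds of match among the members. The CFI window held C/EBP letters at -72 to -65 and at -38 to -31, and those of CD46 and CD55 held none of the letters searched.

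CFB encodes factor B, which supplies the protease of the alternative-pathway convertase. Its gene (ENSG00000243649, chr6:31913427-31919863, plus strand) had an entry of 0 for MDA-MB-231 and of 0.018 FPKM (bounds 0–0.281) for LM2, and its second row (ENSG00000244255) at 0 in both. These entries cannot be read as lack of expression. Of 94 protein-coding genes within 1 Mb of CFB, 70 (74.5%) were listed at 0 in both cell lines, against 2453 of 19403 protein-coding genes in the table (12.6%). Among them were VARS, which charges tRNA with valine, CSNK2B, the regulatory subunit of casein kinase 2, and BAG6, a chaperone, all of which dividing cells use. The ribosomal protein gene RPS18 (1326 kb away) and the tubulin gene TUBB (1228 kb away) were listed at 0 as well. The 5 genes were picked with their values in view. The complement genes C2, C4A and C4B next to CFB, which encode the substrates of C1s, were also listed at 0 in both lines. What set these entries to 0 was not tested. Around the other members between 0% and 10.7% of protein-coding genes were listed at 0, except around SERPING1 with 18 of 45 (40.0%), all but 1 of them olfactory receptor genes.

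**Figure D2:**
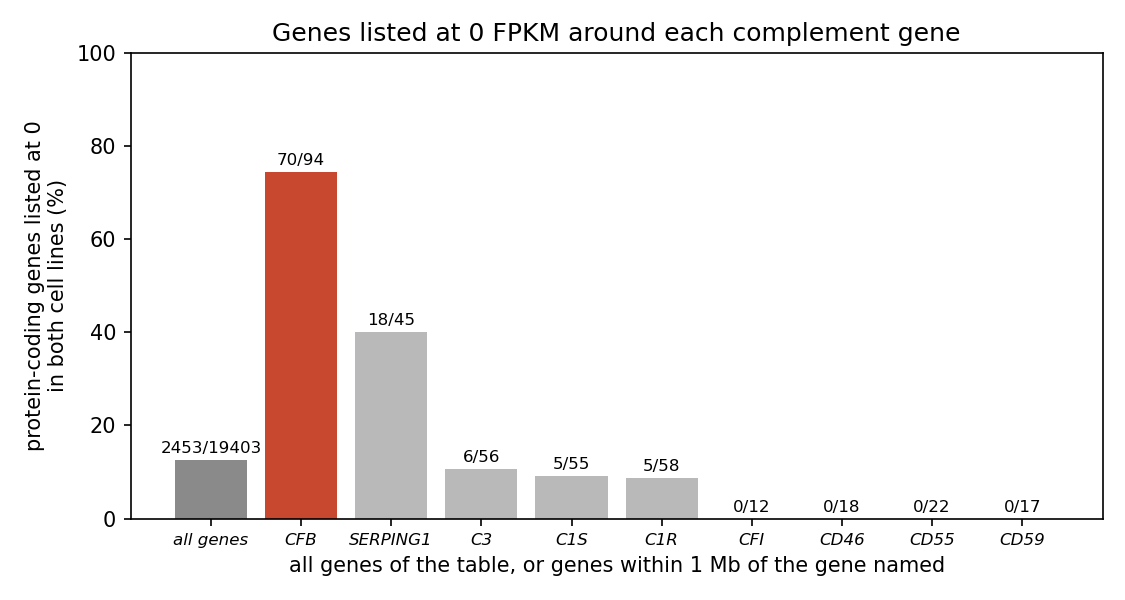
Percent of protein-coding genes listed at 0 FPKM in both cell lines, over the whole table and within 1 Mb of each complement gene; the numbers above the bars are the genes listed at 0 of the genes in the window. The window of CFB reaches 74.5%, against 12.6% over the table.

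Among the soluble regulators, CFI encodes factor I, the protease that inactivates C3b and C4b. The gene (ENSG00000205403, chr4:110652164-110723306, minus strand) was listed at 0.750 FPKM (bounds 0.411–1.09) in MDA-MB-231 and at 0.148 FPKM (bounds 0–0.299) in LM2. The value was 5.08 times as high in MDA-MB-231 and the bounds were apart by 0.112 FPKM. Its mean stayed under 0.5 FPKM, so it was not among the genes compared. Without the filter it would have been called lower, with a log2 change of -0.61. ENSG00000285330, for which no value was used here, covers 29.4% of its exon bases on the same strand. SERPING1, which encodes C1 inhibitor, the serpin that disables C1r and C1s (ENSG00000149131, chr11:57364860-57386644, plus strand), had 0.188 FPKM (bounds 0–0.420) in MDA-MB-231 and 0.134 FPKM (bounds 0–0.349) in LM2. Both soluble regulators were thus below 1 FPKM in both lines.

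The membrane regulators were the highest members in MDA-MB-231. CD59 (ENSG00000085063, chr11:33724556-33758025, minus strand) encodes protectin, which blocks the assembly of the membrane attack complex. It had 307 FPKM (bounds 218–396) in MDA-MB-231 and 359 FPKM (bounds 254–464) in LM2. The ratio was 1.17, with a log2 change of 0.23 and bounds that overlapped broadly. It ranked 268 of all genes in MDA-MB-231 and 204 in LM2. CD55 (ENSG00000196352, chr1:207494864-207560149, plus strand) encodes decay-accelerating factor, which takes apart the C3 convertases. It had 101 FPKM (bounds 75.7–126) in MDA-MB-231 and 67.3 FPKM (bounds 50.2–84.4) in LM2. The value in LM2 was 0.668 of that in MDA-MB-231 (log2 change -0.57), just inside the 1.5-fold limit, and the bounds overlapped by 8.67 FPKM. The ratio of the bounds ran from 0.399 to 1.11. CD46 (ENSG00000117335, chr1:207925382-207968858, plus strand) encodes membrane cofactor protein, which helps factor I cleave C3b. It had 83.4 FPKM (bounds 61.3–105) in MDA-MB-231 and 76.2 FPKM (bounds 55.2–97.2) in LM2, a log2 change of -0.13, with a ratio of the bounds from 0.523 to 1.58. None of the 3 was called.

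Within each cell line the order of the members followed from these values. In MDA-MB-231 the order was CD59, CD55, CD46, C1R, C3, C1S, CFI and SERPING1, with the bounds of CD55 and CD46 overlapping, likewise those of C1R and C3, of C3 and C1S, of C1S and CFI, and of CFI and SERPING1. In LM2 C3 stood second, behind CD59 and above CD46 and CD55, although its bounds overlapped those of both. CD59 had no overlap with the member below it in either line. The sum of CD46, CD55 and CD59 was 491 FPKM in MDA-MB-231 and 503 FPKM in LM2, a ratio of 1.02. C3 equalled 1.31% of that sum in the former and 23.2% in the latter. The level of CD59 was 47.5 times that of C3 in MDA-MB-231 and 3.08 times in LM2. CD55 was 15.6 times as high as C3 in MDA-MB-231 and 0.577 times as high in LM2. Of the FPKM summed over all members, CD59 held 59.9% and 55.4%, and C3 held 1.26% and 18.0%.

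The other genes of the cascade were examined from a list of 49 complement genes that are not members. Of these, 38 did not pass the filter, with a highest value of 0.727 FPKM, and 6 were listed at 0 in both lines (C2, C4A, C4B, CFHR4, FCN1 and FCN2). Among the 11 past the filter, 2 were called higher and 3 lower, beside 4.67% higher and 4.61% lower over all genes past the filter. By value, 2 were higher and 9 lower, with a median log2 change of -0.32, beside -0.04 over all genes. Among those called higher, ITGB2, the shared beta chain of the complement receptors for cleaved C3b, rose from 3.93 FPKM (bounds 2.25–5.60) to 13.1 FPKM (bounds 8.14–18.0), a log2 change of 1.51. Of the alpha chains in these receptors, ITGAM stood at 0.006 FPKM in MDA-MB-231 and 0.019 in LM2. ITGAX stood at 0.067 FPKM in MDA-MB-231 and 0.078 in LM2.

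The 3 genes that fell were all secreted factors. CFP encodes properdin, which stabilises the alternative-pathway convertase. It fell from 12.5 FPKM (bounds 8.67–16.3) to 0.606 FPKM (bounds 0.039–1.17), and was 20.6 times as high in MDA-MB-231. CLU, which encodes clusterin, a chaperone that also binds the terminal complex, fell from 119 FPKM (bounds 70.3–168) to 18.4 FPKM (bounds 8.28–28.6), a log2 change of -2.63. C4BPB, the beta chain of C4b-binding protein, fell from 23.3 FPKM (bounds 16.1–30.4) to 3.24 FPKM (bounds 1.83–4.66), a log2 change of -2.52. By role, 1 of 15 other initiation genes passed the filter (C1RL, log2 change -0.05), 2 of 2 alternative-pathway genes (CFP, and CFD at -0.04), 1 of 7 terminal genes (C5, -0.14), 4 of 12 soluble regulators (with VTN at -0.77), 1 of 4 membrane regulators (SUSD4, -0.32) and 2 of 9 receptors (with C1QBP at -0.37). The receptor of C3a, C3AR1, did not pass the filter, with 0.171 FPKM (bounds 0.003–0.339) in MDA-MB-231 and 0.727 FPKM (bounds 0.340–1.11) in LM2.

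**Figure D3:**
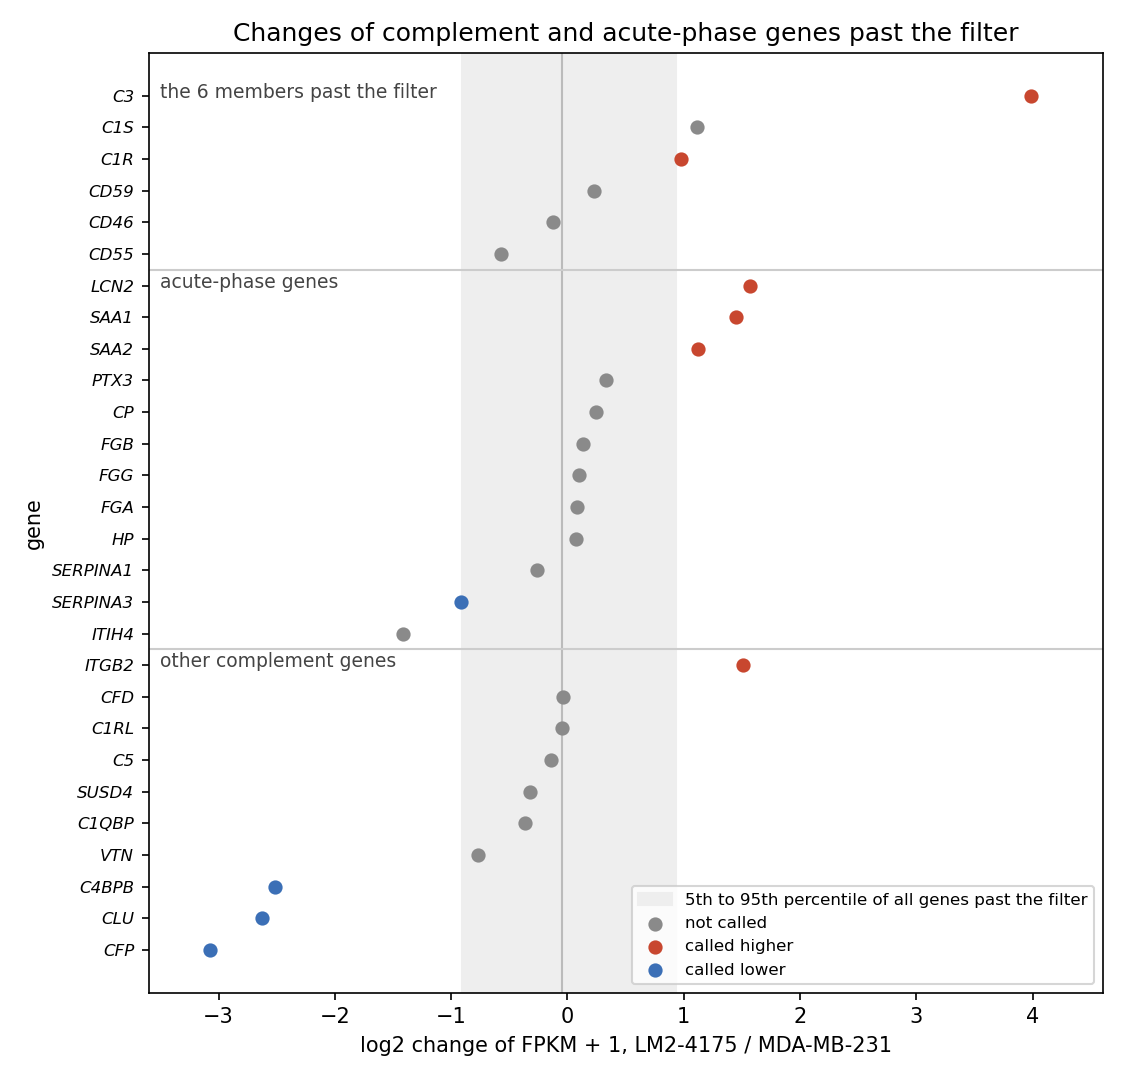
Log2 change of FPKM + 1 from MDA-MB-231 to LM2 for the 6 members, 12 acute-phase genes and other complement genes past the filter, each point 1 gene; red and blue points were called higher and lower, and the grey band runs from the 5th (-0.91) to the 95th (0.93) percentile of all genes past the filter. C3 lies farthest to the right at 3.98, and CFP, CLU and C4BPB lie farthest to the left.

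C3 and CFB are acute-phase proteins, which the liver and other cells make under inflammatory cytokines, and 20 further genes of this kind were examined. Of the 12 past the filter, 3 were called higher and 1 lower, beside 4.67% higher and 4.61% lower over all genes past the filter. The median log2 change was 0.12, beside -0.04 over all genes. SAA1 and SAA2, which encode serum amyloid A, rose from 22.5 FPKM (bounds 15.6–29.5) to 63.3 FPKM (bounds 47.2–79.4) and from 20.2 FPKM (bounds 12.2–28.2) to 45.0 FPKM (bounds 30.6–59.4). Their values are uncertain, since the copies are near-identical and reads could have been split between them. LCN2, lipocalin that binds iron-carrying siderophores, rose from 1.03 FPKM (bounds 0.403–1.66) to 5.03 FPKM (bounds 3.14–6.92). SERPINA3, an inhibitor of chymotrypsin-like proteases, fell from 1.62 FPKM (bounds 0.839–2.40) to 0.389 FPKM (bounds 0.019–0.760). ITIH4 had 3.86 FPKM (bounds 0–8.70) and 0.819 FPKM (bounds 0–3.19) with overlapping bounds. The fibrinogen genes FGA, FGB and FGG lay between 0.549 and 0.789 FPKM in both lines and were not called.

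CD55 and CD59 are held in the membrane by a glycosylphosphatidylinositol (GPI) anchor, without which they do not reach the cell surface. The enzymes that build and attach this anchor were examined as a list of 27 genes, of which 26 passed the filter. None was called by the fold and the bounds, beside 9.27% of all genes past the filter. By the fold alone 2 were lower. By value, 10 were higher and 16 lower, with a median log2 change of -0.12, beside -0.04 over all genes. PIGA, the catalytic subunit of the first step, had 8.08 FPKM (bounds 5.13–11.0) in MDA-MB-231 and 6.62 FPKM (bounds 3.84–9.40) in LM2. PIGN, which modifies the first mannose of the anchor, showed the largest difference, with 8.08 FPKM (bounds 4.50–11.7) and 4.09 FPKM (bounds 1.86–6.32). DPM3 had 67.5 and 44.1 FPKM, PIGU 33.2 and 22.2 FPKM, PIGX 20.1 and 13.7 FPKM and DPM2 46.0 and 32.7 FPKM, all with overlapping bounds. PIGA was chosen after its values were seen.

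The members lie in several gene groups, so the protein-coding genes past the filter within 1 Mb of each start were compared as well. Over the 132 neighbours of all members, 11 were called higher and 3 lower, 10.6% in all, beside 9.27% over the table. Among the 132 were the members C1R, C1S, CD46 and CD55, each near another member, and C1R is counted among the 11. C3 had 35 such neighbours with a median log2 change of 0.20, of which 3 were called higher and none lower. VAV1, a guanine nucleotide exchange factor that starts 42.1 kb upstream of C3, rose from 0.448 FPKM (bounds 0.112–0.783) to 10.8 FPKM (bounds 6.87–14.7). CD70, a ligand of the TNF family 126 kb in the other direction, rose from 0.036 FPKM (bounds 0–0.146) to 12.0 FPKM (bounds 8.05–15.9), and TUBB4A, a beta tubulin 228 kb away, rose from 0.060 FPKM (bounds 0–0.329) to 1.88 FPKM (bounds 1.08–2.69). The other neighbours of C3 were not called.

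Around C1R, 40 neighbours had a median log2 change of -0.12, and CD9, a tetraspanin (165 to 289 FPKM), and IFFO1, an intermediate filament protein (0.936 to 2.37 FPKM), were called higher. CD46 and CD55 start 431 kb apart and share most of their neighbours, among them C4BPB, which starts 233 kb from CD55 and fell. In the same stretch the cytokine gene IL24 (0.445 to 6.71 FPKM) and FAIM3, an IgM receptor (2.44 to 6.35 FPKM), rose, while CD46 and CD55 themselves were not called. Near CD59, LMO2, a transcriptional cofactor (0.308 to 3.92 FPKM), and DEPDC7 (0.889 to 2.96 FPKM) rose among 14 neighbours. Near SERPING1, the adaptor gene LPXN (12.3 to 35.5 FPKM) rose among 17. None of the 8 neighbours of CFI was called. Around CFB only 4 neighbours passed the filter, and HLA-B (30.5 to 11.9 FPKM) and HLA-C (4.81 to 1.79 FPKM), similar class I genes whose reads could have been split, fell. Both lie in the window where 70 of 94 protein-coding genes were listed at 0 in both lines. Whether their values were affected as well was not tested.

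**Figure D4:**
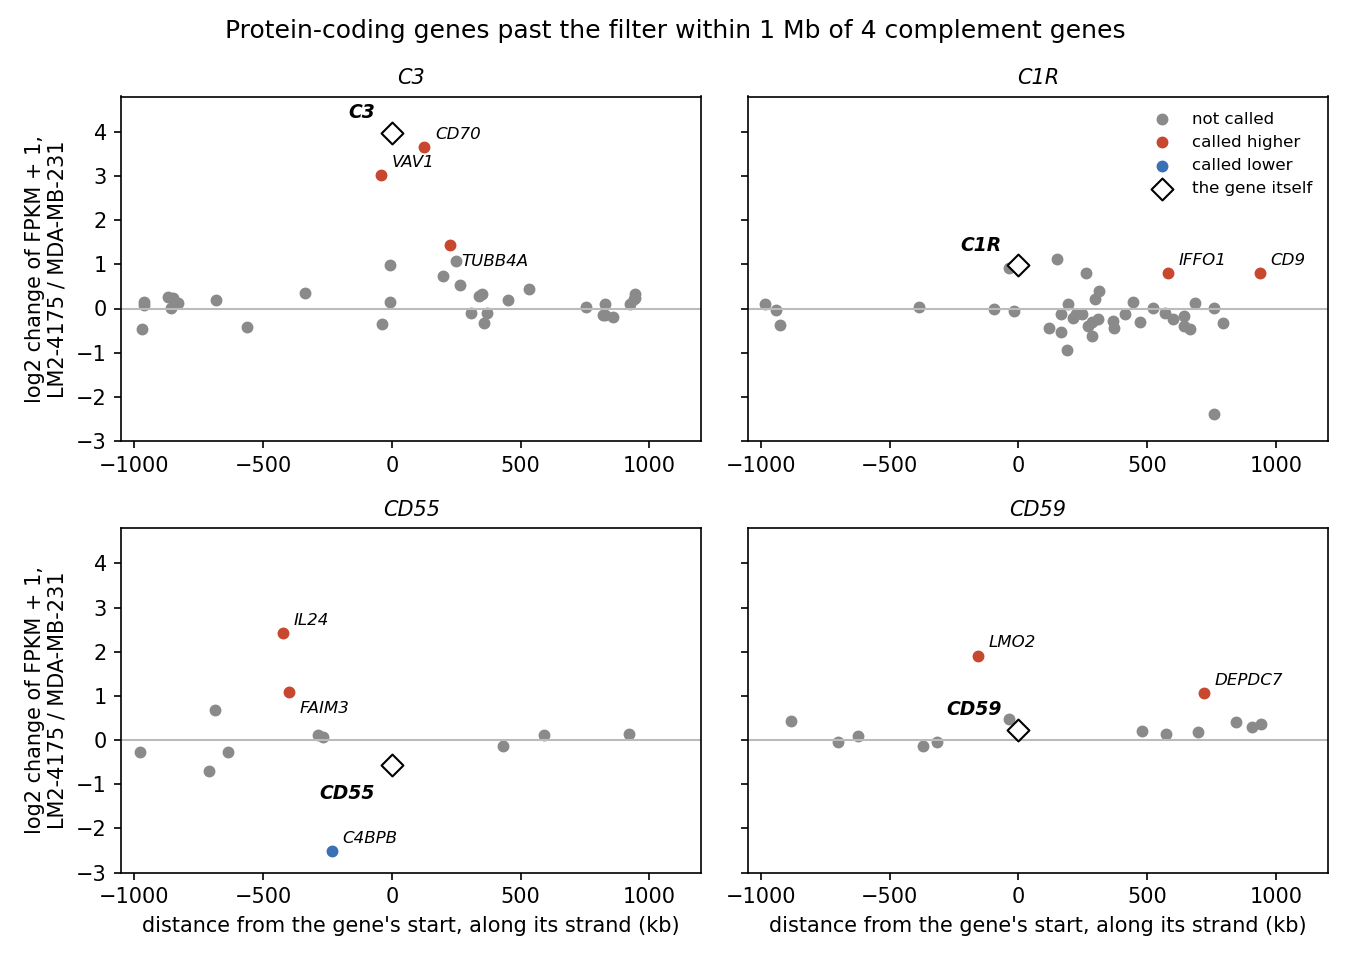
Log2 change of FPKM + 1 for protein-coding genes past the filter within 1 Mb of C3, C1R, CD55 and CD59, against the distance between gene starts in kb, counted along the strand of the gene named; the diamond is the gene itself, and red and blue points were called higher and lower. VAV1 and CD70 lie within 126 kb of C3 with log2 changes of 3.02 and 3.65, whereas C4BPB, IL24 and FAIM3 lie apart from CD55 at -0.57.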

How the data were processed

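The authors made TruSeq libraries from total RNA, 2 for MDA-MB-231 and 2 for LM2. Paired reads were aligned by TopHat 2.0 with its defaults (hg19), Cufflinks quantified genes of GENCODE 19, and the labels also name Cuffdiff. For 57815 genes the authors deposited 1 FPKM per cell line beside its bounds and a status. The table holds no columns of the authors' own comparisons. How the bounds were derived, whether strand was used in counting and how library sizes were scaled are not given in the sources used here. FPKM does not give the depth behind a value, so the bounds were taken as the measure of precision.

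From these values, log2 ratios of FPKM + 1 were calculated in Python 3.11.15 with NumPy 2.4.6 and pandas 2.3.3, with Matplotlib 3.10.9 for the plots. Kept for comparison were genes with a mean of at least 0.5 FPKM and a status of OK in both lines, 13911 in all, and 8 genes of the table had another status. A gene was called at a 1.5-fold change or more with bounds that did not overlap. This compares combined libraries, not replicates, and no p-values were computed. The call was tested on simulated data. Positions and exon overlaps came from GENCODE 44 (GRCh37); Ensembl IDs joined 55535 genes to it, with overlaps on either strand considered. Promoters came from RefSeq (GRCh38.p14), and protein sequences were not analysed here.

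Named are the 9 members, every called gene of each list (and the largest changes up to 5 where fewer were called) and the called neighbours up to 3 a member; other genes named are marked or illustrate a list. The values of 1 called gene of the lists are not reported here. The members and lists were chosen with earlier results of these data known. Other pseudocounts, filters, scalings, call rules and a window of 3 Mb were tried.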

Additional observations from a re-analysis of the deposited data

How the results depend on the processing

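The alternatives were a pseudocount of 0.1 or none, no filter or a mean of at least 1 or 5 FPKM, scaling to the same sum, centring on the median, the fold alone, the bounds alone, a fold of 2, and neighbours within 3 Mb. No member changed the sign of its log2 change. C3 was called under all of them. With a fold of 2, the called members went from 2 to 1, since C1R was lost, and the called genes of the table to 853. The fold alone called 3074 genes of the table, 2 lower GPI anchor genes, and C1S. A mean of at least 5 FPKM left 764 genes called in the table and 2 acute-phase genes. CFI was called lower without the filter and after scaling to the same sum (log2 change -0.81). The other 59 member values kept their side of the rule, and 11.3% of neighbours within 3 Mb were called. The share of higher among the called genes of the table, 50.3%, ranged from 42.0% (a mean of at least 5 FPKM) to 57.7% (scaling to the same sum). The median log2 change of all genes turned from -0.04 to 0.03 with that scaling, and that of the other complement genes went from -0.32 to -0.09 with it and to 0.00 without the filter. With a mean of at least 5 FPKM, the median of the other complement genes went to -1.44 over 6 genes. That of the acute-phase genes went from 0.12 to 0.73 over 4 genes at the same limit. No paired analysis was possible because the libraries of each cell line are combined in 1 value, and no library could be left out for the same reason. Low genes are limited by wide bounds.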
